A study of Mus musculus with 12 samples.

Results

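The Meis2 locus was taken as a window of 1 Mb on chromosome 2 of the mouse genome, from 115000001 to 116000000 on build mm9, chosen because deep-layer neurons had more open regions there than upper-layer neurons. All peaks overlapping the window were used, 886 of the 1491780 peaks in 12 lists. Merging peaks that overlapped or touched gave 230 regions in the window, of 498516 in all. A list counted as open at a region if its peaks covered 1 bp or more of it. Since the number of open regions in deep-layer against upper-layer lists chose the window, that contrast is described below without a test.

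Meis2 encodes a homeodomain transcription factor that binds DNA together with PBX proteins and takes part in the development of the forebrain, limbs, heart and craniofacial structures. In the embryonic telencephalon it is known from the ganglionic eminences and striatum, and it is also expressed by cortical neurons. Developmental transcription factor genes of this kind commonly lie among many distal elements, which ATAC-seq detects as open sites by the insertions of a transposase into accessible DNA. In the RefSeq annotation of GRCm38.p6, another build than that of the peaks, Meis2 lies on the minus strand of chromosome 2. Its nearest protein-coding neighbours there are BC052040 and Tmco5, and long noncoding RNA genes lie next to it on either side (Gm31590 and G630016G05Rik). No mm9 annotation or sequence was used, so the regions below are named by position. Which of them lie in exons, introns or the promoter of Meis2 is not analysed here.

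The lists came from projection neurons of the neocortex of CD1 mice, sorted for GFP. Golli-GFP transgenic mice gave the deep-layer neurons, sorted at E18.5, E16.5 or E13.5. Upper-layer neurons had received a birth-dating plasmid with GFP under a Cdk5r promoter by in utero electroporation at E15.5 and were sorted at E17.5, at P1 and at P5. There were 2 replicates in each of 6 groups, each pooled from 2 to 8 embryos per the labels. Upper-layer neurons therefore comprise only the cells that took up the plasmid on that day, and deep-layer neurons those in which the transgene was active. Whether replicates are separate litters is not in the labels, so a p-value here reflects only the spread between lists, which can be technical. All deep-layer lists were prenatal and both postnatal stages were upper-layer. Birth and population therefore cannot be told apart where P1 or P5 lists are set against deep-layer lists. Markers of the sorted cell types were not analysed here, since genes could not be placed on mm9.

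The lists held 96452 to 164508 peaks, and postnatal lists (107282 to 131337) lay within that range. The files give peak positions without heights, so the strength of a peak is not known. Each list came from many sorted cells together, so a region open in few cells and one weakly open in many cannot be told apart. Upper-layer E17.5 replicates were the most alike of the 6 pairs, with a base-pair Jaccard index (shared length over joint length) of 0.641 over the genome, and the peak names in both lists carry the same library name. The P1 and P5 pairs were the least alike, at 0.272 and 0.254. The main counts that rest on the E17.5 pair are therefore also given with a single E17.5 list, an alternative added after seeing the data.

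Open regions of the Meis2 window were about as many in upper-layer E17.5 neurons as in deep-layer neurons, and were few in upper-layer neurons after birth. The 2 deep-layer E13.5 lists were open in 85 and 100 regions, the E16.5 lists in 93 and 66, and the E18.5 lists in 69 and 111. In upper-layer neurons the E17.5 lists held 97 and 85 open regions, the P1 lists 26 and 26, and the P5 lists 24 and 31. Both E17.5 lists thus lay inside the deep-layer range, while all 4 postnatal lists lay below every prenatal list. Deep-layer lists averaged 87.3 ± 17.6 open regions (SD, n = 6) against 48.2 ± 33.5 (SD, n = 6) in upper-layer lists, 39.2 regions fewer. Among prenatal lists alone the difference was −3.67, with more regions at E17.5 (91.0 ± 8.49, SD, n = 2) than in deep-layer lists, a gap smaller than the spread between lists. It was 2.33 without E17.5 replicate 1 and −9.67 without replicate 2, so its sign rested on a single list. The 8 prenatal lists averaged 88.2 ± 15.3 regions (SD) and the 4 postnatal lists 26.8 ± 2.99 (SD), a ratio of 3.30.

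**Figure D1:**
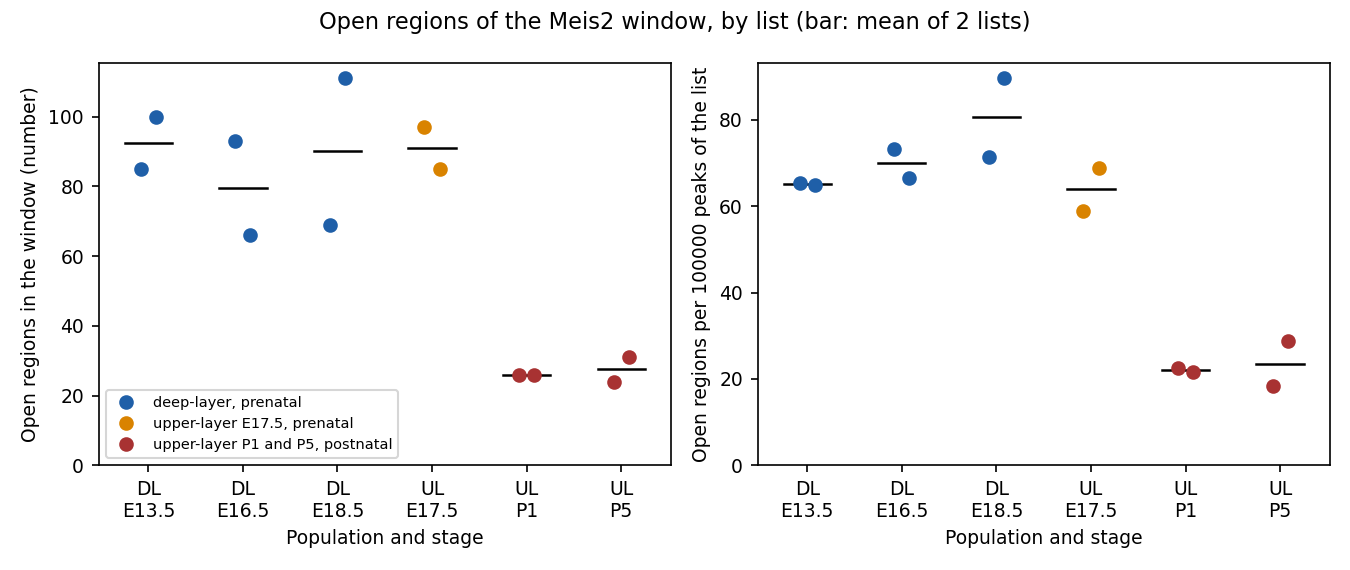
Open regions of the window in each of the 12 lists, as numbers (left) and per 100000 peaks of the list (right), by population (DL deep-layer, UL upper-layer) and stage. Points are lists and bars the mean of 2 lists. The 4 postnatal lists, at 24 to 31 regions, sit below the 8 prenatal lists, at 66 to 111.

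Relative to the length of each list the postnatal lists were again the lowest, but the order among prenatal groups changed. Per 100000 peaks, the window held 65.4 and 65.0 open regions in the E13.5 lists, 73.3 and 66.5 at E16.5, and 71.5 and 89.6 at E18.5. It held 59.0 and 69.0 in the upper-layer E17.5 lists, 22.6 and 21.6 at P1, and 18.3 and 28.9 at P5. Again the postnatal lists did not overlap with the prenatal ones, and E17.5 replicate 1 was the lowest prenatal list. Over the genome, the 4 postnatal lists of the 12 held 62.3% of the regions open in a single list. Dividing by their number of peaks may thus lower the postnatal values, which was not tested. On this scale deep-layer lists averaged 71.9 regions against 64.0 at E17.5, a difference of 7.93 (2.92 and 12.9 without E17.5 replicate 1 or 2). The sign of the prenatal difference between populations therefore turned with the scale. Peaks covered 33482 to 67045 bp of the window in deep-layer lists, 63602 and 54992 bp at E17.5, and 8042 to 15011 bp after birth. The median peak in the window was also shorter after birth, 270 to 352 bp against 339 to 487 bp before it. The whole lists showed the same, with medians of 302 to 326 bp and 390 to 489 bp.

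Within each population the change from the first to the last stage was tested by exact permutation of stage labels (90 assignments, two-sided, smallest possible p 0.0222). The 6 tests, of open regions, regions per 100000 peaks and covered length in each population, were adjusted together by Benjamini-Hochberg. In upper-layer neurons the P5 minus E17.5 difference was −63.5 open regions (p = 0.0889, adjusted 0.133, exact permutation), and both P5 lists lay below both E17.5 lists. The test did not pass. P1 lists were as low as P5 lists, and some exchanges of P1 and P5 labels gave an equal or larger difference. With P1 and P5 joined and set against E17.5, which was added once the values were known, the difference was −64.2 regions and p = 0.0667 (exact permutation, two-sided), the smallest that 15 assignments allow. Without E17.5 replicate 1 or 2 it was −58.2 and −70.2 regions, each at p = 0.2 (exact permutation), the smallest that 5 assignments allow. Choosing the window for few upper-layer regions may itself favour low upper-layer lists, most of which were postnatal. The upper-layer p-values are therefore no independent support for a fall after birth. In deep-layer neurons the number of open regions differed by −2.5 between E18.5 and E13.5 (p = 0.911, exact permutation), far less than the gap between the E18.5 replicates. Relative to list length it was higher at E18.5, by 15.4 regions per 100000 peaks (p = 0.0889, adjusted 0.133, exact permutation), and both E18.5 lists lay above both E13.5 lists, but that test did not pass either. The sign of this difference therefore turned with the scale, and without E13.5 replicate 2 or E18.5 replicate 1 the difference in numbers was 4 and 18.5.

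Along the window, prenatal open regions were densest between 115650001 and 115900000 and sparse in the last 50 kb, and postnatal ones lay mostly in the last 500 kb. In the first 500 kb, from 115000001 to 115500000, prenatal lists were open in 24 to 42 regions and postnatal lists in 4 to 7. In the last 500 kb, prenatal lists were open in 40 to 70 regions and postnatal lists in 18 to 24. The prenatal mean was thus 34.5 regions against 5.75 in the first stretch and 53.8 against 21 in the second.

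**Figure D2:**
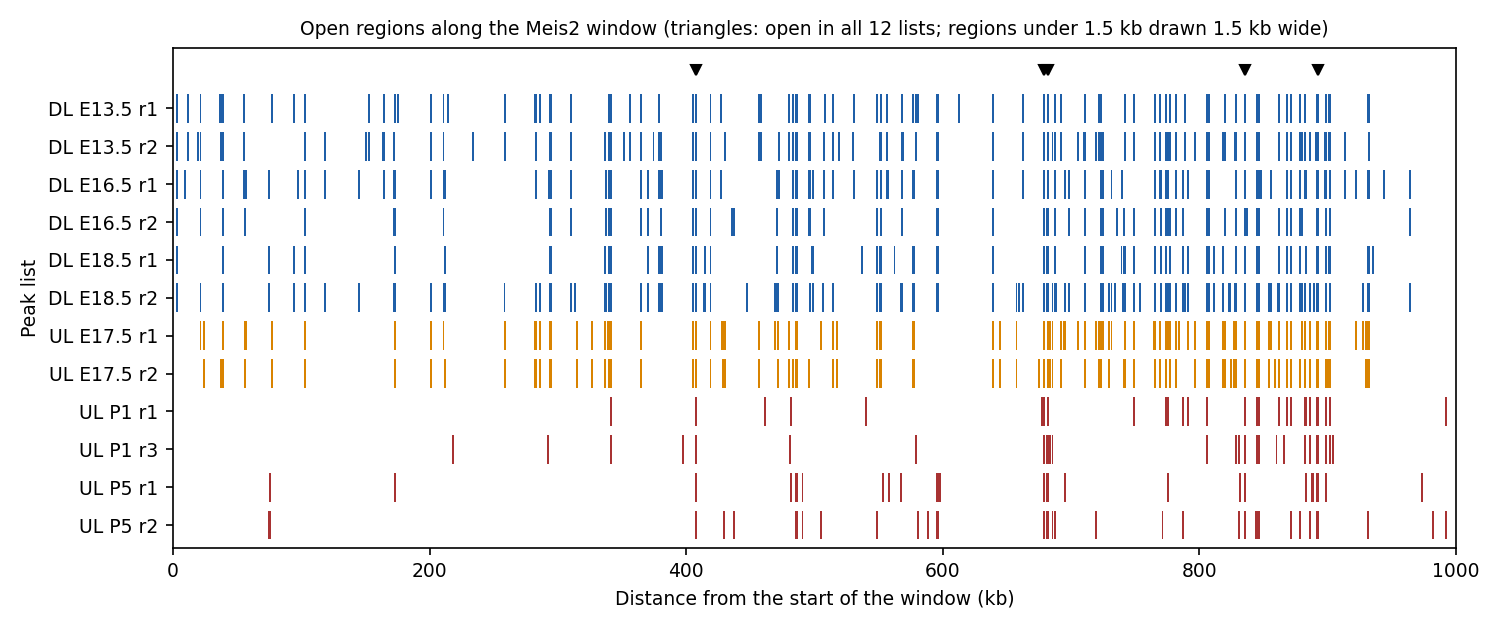
Open regions along the window, one row per list (r, replicate), against the distance from the window start in kb. Prenatal rows (blue and orange) hold 24 to 42 regions in the first 500 kb and 40 to 70 in the last 500 kb, with few in the last 50 kb, and postnatal rows (red) hold 4 to 7 regions in the first 500 kb and 18 to 24 in the last 500 kb.

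In bins of 50 kb the densest stretch before birth, from 115850001 to 115900000, was also the densest after birth, with a mean of 9.38 open regions in prenatal and 6 in postnatal lists. The deep-layer lead was largest from 115350001 to 115400000 and from 115700001 to 115750000 (3.83 regions each), followed by 115750001 to 115800000 (3.67). These bins differed in E17.5 neurons. From 115350001 to 115400000 the E17.5 mean was 1 region, below the deep-layer mean of 4.33. From 115700001 to 115750000 it was 8.5, above the deep-layer mean of 7, and in the third bin it was 8 against 7.5. The lead of the first bin was thus present before birth, and that of the other two was seen against the postnatal lists alone. The last bin, from 115950001, was the only bin in which upper-layer lists led, by a mean of 0.667 against 0.5 regions. No bin was without a region, but the prenatal mean in the last bin was 0.375.

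**Figure D3:**
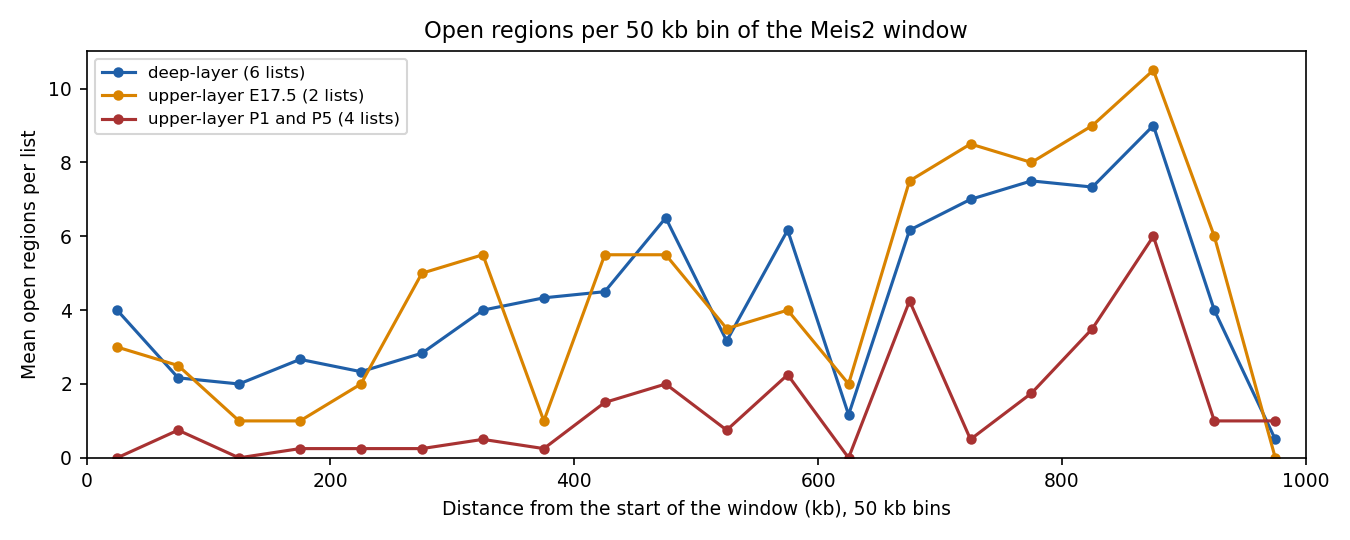
Mean open regions per list in 20 bins of 50 kb along the window, for deep-layer, upper-layer E17.5 and postnatal upper-layer lists. The E17.5 line lies above the deep-layer line near 275 kb, at 5 against 2.83, and below it near 375 kb, at 1 against 4.33, and the postnatal line rises to 6 near 875 kb.

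Of the 230 regions, 84 (36.5%) were open in a single list, against 53.2% over the genome. These were 51 in a deep-layer, 10 in an E17.5 and 23 in a postnatal list, or 60.7%, 11.9% and 27.4%, against 27.4%, 10.3% and 62.3% over the genome. The remaining 146 were open in 2 or more lists, and 101 of these (69.2%) were open in no postnatal list, against 47.5%. More deep-layer than upper-layer lists were open in 96 of them (65.8%, against 43.3% over the genome), fewer in 28 (19.2%, against 36.4%) and equally many in 22 (15.1%, against 20.3%). A lead of 4 or more deep-layer lists was found in 29 of the 146 regions (19.9%), against 9.13% of the 233120 regions of the genome open in 2 or more lists. A further 21 regions led by 3 lists and were left out of this count. No region of the window led by 4 or more upper-layer lists, against 2.29% of the genome. The largest upper-layer lead was 3 lists, in 1 region. These shares restate the choice of the window, and nothing is read from them. The count of 29 was 9 when peaks had to cover 0.5 of a region, and 8 to 12 without any one of the 6 deep-layer lists, since 4 of 5 lists then had to lead.

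A small set of regions was open in every list. There were 5 such regions, 3.42% of the 146, against 7.31% over the genome, a share on which the choice of the window bears. Among these 5, the longest peaks lay in the region from 115890960 to 115893711. Its peaks were 1670, 1501, 1473, 1094, 1634 and 1913 bp long in the deep-layer lists in order of stage, 2397 and 2602 bp at E17.5, and 1427, 1714, 1334 and 1629 bp after birth. The E17.5 peaks were the longest, and postnatal lengths lay within the deep-layer range. The region from 115834547 to 115836673 was less even, with 844 to 1636 bp in prenatal lists but 228, 684, 269 and 995 bp in the P1 and P5 lists. At 115406893 to 115408142, the sole region of this kind in the first 500 kb, deep-layer peaks were 934 to 1214 bp long, E17.5 peaks 907 and 910 bp and postnatal peaks 528 to 898 bp. All postnatal peaks there were shorter than all prenatal ones. The other two regions lay close together, at 115678263 to 115679110 and 115681458 to 115682600. In the latter, E17.5 peaks of 998 and 1055 bp exceeded every deep-layer peak (396 to 543 bp) and every postnatal peak (204 to 375 bp). In the former, E17.5 peaks of 848 and 689 bp also exceeded all other lists (230 to 606 bp). Whole lists showed the same order. Their median peaks were 489 and 481 bp at E17.5, 390 to 476 bp in deep-layer lists and 302 to 326 bp after birth. The order of lengths is therefore not read as a trait of these regions.

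The 29 regions with a deep-layer lead of 4 or more lists fell into 3 sets by their state in the E17.5 lists. In 12 of them both E17.5 lists were open, in 5 a single one, and in 12 neither. With both E17.5 lists open, a lead of 4 requires all 6 deep-layer lists to be open and all postnatal lists to be closed, so the state of the first set is fixed by its definition. Over the genome the first set held 8936 of the 21280 regions with such a lead, a share similar to 12 of 29. Genome shares of the other sets were not taken. In the last set neither E17.5 list had the peak. Over the genome, 14.8% of regions open in 4 or more deep-layer lists were closed in both E17.5 lists, against 13 of 62 such regions here (21.0%). Among regions open in all 6 deep-layer lists, 3 of 32 in the window (9.38%) were closed in both E17.5 lists, against 5.47% over the genome, and 27 of 32 (84.4%) were open in both, against 90.4%. With the E17.5 state taken from a single list, without replicate 1 or 2, the 13 became 17 (27.4%, against 21.4% over the genome) and 16 (25.8%, against 16.2%). The 3 became 3 (against 8.79%) and 5 (15.6%, against 6.28%), and the 27 became 29 (90.6%, against 91.2%) and 27 (against 93.7%). The E17.5 lists were part of the contrast that chose the window, so these shares carry no test.

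**Figure D4:**
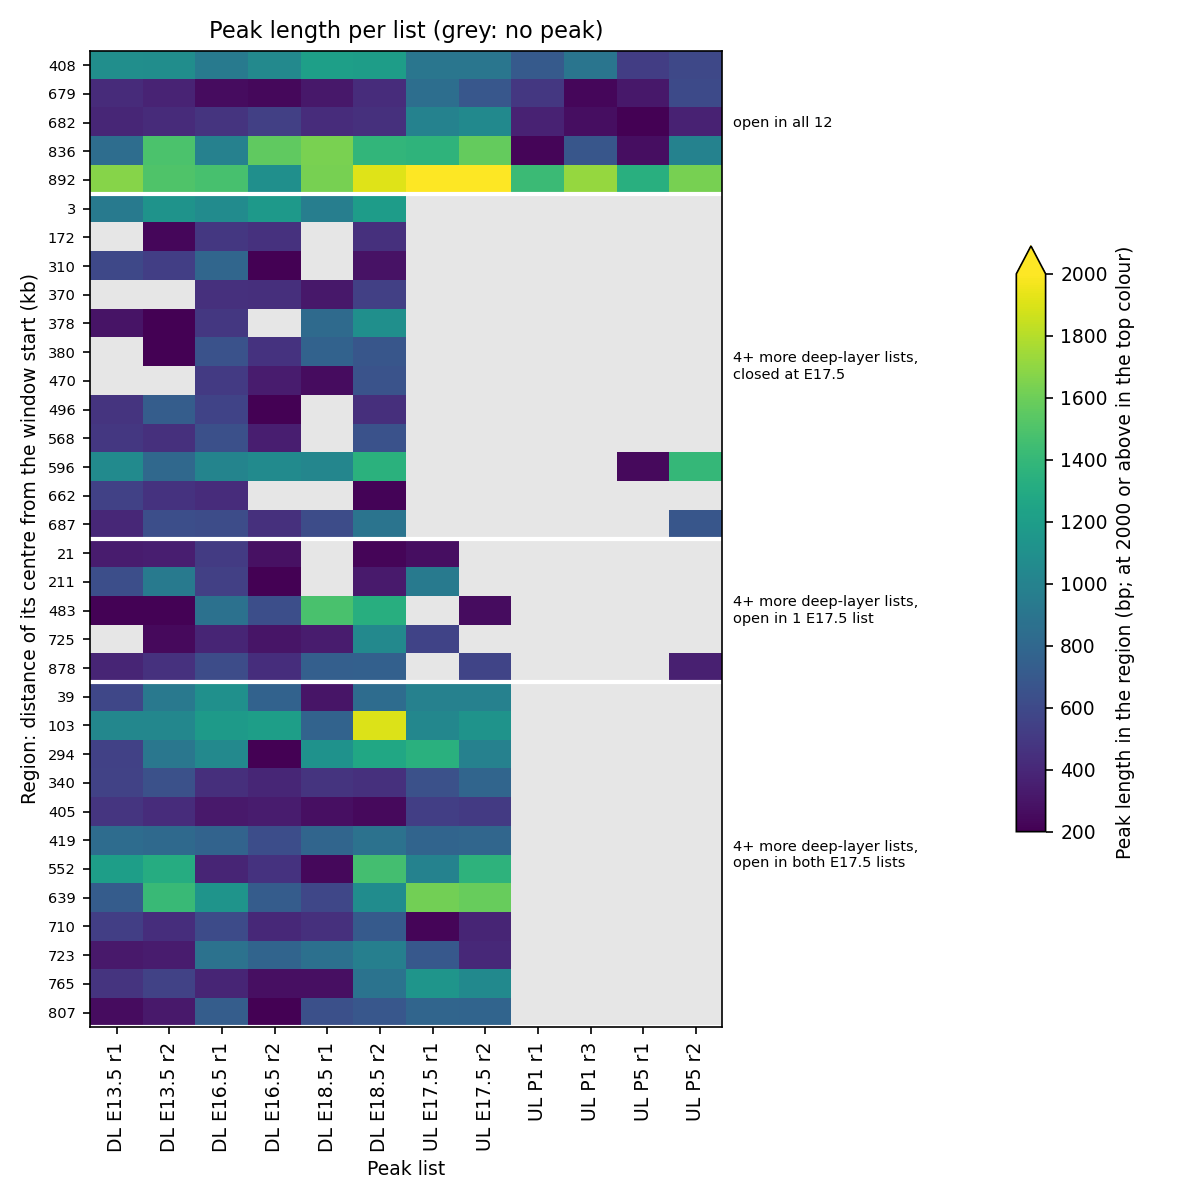
Peak length in bp (colour) in each list (columns) for the 5 regions open in all 12 lists and the 29 regions with a lead of 4 or more deep-layer lists (rows, by distance of the region centre from the window start in kb). Grey cells hold no peak. The 29 regions split into 12 closed at E17.5, 5 open in a single E17.5 list and 12 open in both, and the last 12 are closed in all postnatal lists.

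One region had a peak in all 6 deep-layer lists and none in the upper-layer lists, 0.685% of the 146 regions against 0.743% over the genome. It lay at the start of the window, from 115002322 to 115003777. Its peaks measured 945 and 1127 bp at E13.5, 1065 and 1172 bp at E16.5, and 973 and 1198 bp at E18.5, so that it was long and even over the deep-layer stages. The region from 115594987 to 115596739 was similar before birth, with deep-layer peaks of 1062, 811, 1009, 1061, 1027 and 1353 bp and none at E17.5. It held no peak at P1 but peaks of 248 and 1402 bp in the P5 lists. The region from 115686495 to 115687577 had deep-layer peaks of 402 to 890 bp, none at E17.5 or P1, and a peak of 684 bp in P5 replicate 2 alone. These were the 3 regions open in every deep-layer list and closed at E17.5, and only the first was closed in all upper-layer lists.

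The other 9 regions of this set were missing in 1 or 2 deep-layer lists. A group of them lay close together, at 115369691 to 115370360, 115377920 to 115379016 and 115379330 to 115380417, in the bin where the E17.5 lists had a mean of 1 open region. The first of them had no peak in either E13.5 list, and peaks of 450 and 444 bp at E16.5 and 315 and 541 bp at E18.5. In the second the peaks were 292 and 200 bp at E13.5, and 824 and 1097 bp at E18.5. The third had peaks in E13.5 replicate 2 (202 bp) and in all 4 later deep-layer lists (461 to 765 bp). All 3 were thus shorter or absent at E13.5 relative to E18.5, and closed in every upper-layer list. No peak length in a window region was below 200 bp, so lengths of 200 and 202 bp lie at the lower limit. Whole E18.5 lists also had longer median peaks, 416 and 476 bp against 390 and 397 bp at E13.5. The regions from 115309622 to 115310739, 115496024 to 115496911 and 115567582 to 115568417 had the opposite gap: each was open in every deep-layer list except E18.5 replicate 1, the shortest of all lists at 96452 peaks.

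Regions with a peak in all 8 prenatal lists and none after birth numbered 12, 8.22% of the 146 regions against 3.83% over the genome. Among 27 regions with a peak in all 8 prenatal lists, 44.4% were closed in all 4 postnatal lists, where the genome had 22.1%. With 7 prenatal lists, without E17.5 replicate 1 or 2, it was 13 of 29 (44.8%, against 22.4%) and 12 of 27 (against 23.5%). Of the 32 regions open in all 6 deep-layer lists, 14 (43.8%) were closed in all 4 postnatal lists, against 26.4%. The contrast that chose the window holds these lists, so the shares restate that choice. Birth and population cannot be told apart in the share of the 32 regions. By definition the 12 regions were open in both E17.5 lists and closed at P1 and P5. Their difference by stage within upper-layer neurons is therefore not a separate result. In the region from 115101947 to 115103849 peaks were 1036, 1030, 1180, 1207, 770 and 1903 bp long in the deep-layer lists and 1035 and 1124 bp at E17.5. From 115638191 to 115640074 the E17.5 peaks (1620 and 1580 bp) were longer than all deep-layer peaks (585 to 1423 bp). The E17.5 lists also had the longest median peak over whole lists. The region from 115418216 to 115419212 was the most even of those named, with 625 to 881 bp in the deep-layer lists and 778 and 793 bp at E17.5. Every prenatal peak of these 3 regions was longer than the median peak of any postnatal list.

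Of the 75 regions open in both E17.5 lists, 62 (82.7%) were closed in both P5 lists, against 59.6% over the genome, and 52 (69.3%) were closed in all 4 postnatal lists, against 50.8%. The choice of a window with few upper-layer regions bears on both shares. Without E17.5 replicate 1 or 2 the latter was 61 of 85 (71.8%, against 52.6%) and 69 of 97 (71.1%, against 61.1%). The longest of the 62 lay from 115638191 to 115640074, described above, and from 115867739 to 115869409. The latter had peaks of 928 to 1404 bp in deep-layer lists, 1499 and 1507 bp at E17.5 and 1147 bp in P1 replicate 1, and none in the other postnatal lists. Without E17.5 replicate 1 or 2 the 62 regions became 71 and 80, since the stage then rested on a single list, and when each list was cut to its widest peaks, equal in number, they were 37. Of the 62 regions, 52 (83.9%) were open in at least 1 deep-layer list, against 78.7% over the genome, and 28 (45.2%) in both E18.5 lists, against 26.8%. Those 28 were open in both deep-layer E18.5 lists and closed in both upper-layer P5 lists, where birth and population cannot be told apart. Since the window was chosen for more deep-layer regions, that choice bears on the deep-layer shares of the 62 too.

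Both E17.5 lists were open in 10 regions that all 6 deep-layer lists lacked, 13.3% of the 75, near the 14.6% found over the genome. Without E17.5 replicate 1 or 2 these were 14 of 85 (16.5%, against 16.4%) and 17 of 97 (17.5%, against 27.1%). These were short and scattered, from 115023216 to 115929609. The longest lay from 115325594 to 115326152, with peaks of 559 and 431 bp, and from 115826073 to 115826617, with 412 and 545 bp. Just 1 of the 10, from 115683060 to 115683536, was open after birth, with a peak of 295 bp in P1 replicate 3. Peaks present at P5 and absent at E17.5 were fewer still. Of the 10 regions open in both P5 lists, 4 (40%) were closed in both E17.5 lists, against 34% over the genome. They were the region from 115594987 described above, 115489950 to 115490749 (383 and 800 bp at P5), 115680413 to 115681050 (326 and 400 bp) and 115075128 to 115075563 (428 and 241 bp). The second and the last were open in no other list. Without P5 replicate 1 or 2 the 4 regions became 17 and 15, since P5 then rested on a single list. Their number stayed at 4 with either E17.5 list alone (against 37.3% and 35.0% over the genome). No region of the window was found in all 4 postnatal lists but never before birth, against 1.17% of the genome. The choice of a window with few upper-layer regions bears on that share.

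In deep-layer neurons similar numbers of regions closed and opened between E13.5 and E18.5 when both lists of each stage were used. Of the 69 regions open in both E13.5 lists, 17 (24.6%) were closed in both E18.5 lists, against 30.1% over the genome. Of the 62 regions open in both E18.5 lists, 14 (22.6%) had been closed in both E13.5 lists, against 19.3%. Both shares were near those of the genome. With a single list for a stage they rose, to 37 and 28 closing regions without E13.5 replicate 1 or 2 and 30 without E18.5 replicate 2, and to 43 and 22 opening regions without E18.5 replicate 1 or 2. The opening regions were 9 with windows of 500 bp around peak midpoints and, in a separate setting, 8 with regions merged across gaps of up to 200 bp.

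The closing regions were led by 115456008 to 115457203, with peaks of 687 and 1114 bp at E13.5 and none at E16.5 or E18.5. It was also open in both E17.5 lists, at 249 and 200 bp. The region from 115720936 to 115721988 had peaks of 655 and 524 bp at E13.5 and of 942 and 1053 bp at E17.5, and none elsewhere. Upper-layer E17.5 neurons thus shared these 2 sites with the youngest deep-layer neurons only. In all, 7 of the 17 closing regions (41.2%) were open in both E17.5 lists, against 48.7% of such regions over the genome, and 8 (47.1%) in neither, against 35.1%. A single one (5.88%) was open in any postnatal list, against 16.7%. Of the 14 opening regions, 1 (7.14%) was open in both E17.5 lists, against 20.7%, and 10 (71.4%) in neither, against 66.0%. These upper-layer shares rest on few regions. The choice of a window with few upper-layer regions bears on them, and nothing is read from them. The longest of the opening regions, from 115786273 to 115787035, had peaks of 596 and 471 bp at E16.5, 689 and 763 bp at E18.5, 212 bp in P1 replicate 1 and 333 bp in P5 replicate 2. The next, from 115769495 to 115770423, had peaks of 518 bp in E16.5 replicate 1 and of 389 and 902 bp at E18.5, and none in upper-layer lists.

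Likeness between lists inside the window was described by the Jaccard index and given no test. Deep-layer lists of different stages had a mean index of 0.340 (12 pairs), and deep-layer and E17.5 lists 0.318 (12 pairs), over ranges of 0.277 to 0.420 and 0.250 to 0.414. E17.5 lists had a mean index of 0.0914 with postnatal lists of their own population (8 pairs), and deep-layer lists had 0.1003 with them (24 pairs). Over the genome the 4 means were 0.399, 0.367, 0.178 and 0.183. Covered length limits the index: with means of 59297 bp at E17.5 and 11279 bp after birth, full overlap of the shorter would give 0.190. For deep-layer lists, with a mean of 47685 bp, it would give 0.237. With unlike limits, the means of 0.0914 and 0.1003 do not rank the populations by likeness to postnatal lists. Replicates at P1 and P5 also shared little here, with indices of 0.208 and 0.196, against 0.388 to 0.657 in the prenatal pairs.

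Among 2552 windows of 1 Mb with a mean of 5 or more open regions per list, the Meis2 window ranked high before birth and below the median after it. These ranks use the counts that chose the window, so they are a description and nothing is read from them. Per 100000 peaks its prenatal mean of 69.9 regions was exceeded by 34 windows, where the median window had 36.1. Its postnatal mean of 22.9 was exceeded by 1641, at a median of 31.8. The postnatal to prenatal ratio was 0.327, against a median of 0.854, and 168 windows had a lower ratio. The ratio of E17.5 to deep-layer regions, 0.890, lay nearer the median of 1.04, with 604 windows lower. The windows before and after it had prenatal means of 42.4 and 43.2 and postnatal means of 17 and 23.7, the latter above that of the Meis2 window, with ratios of 0.401 and 0.549.

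**Figure D5:**
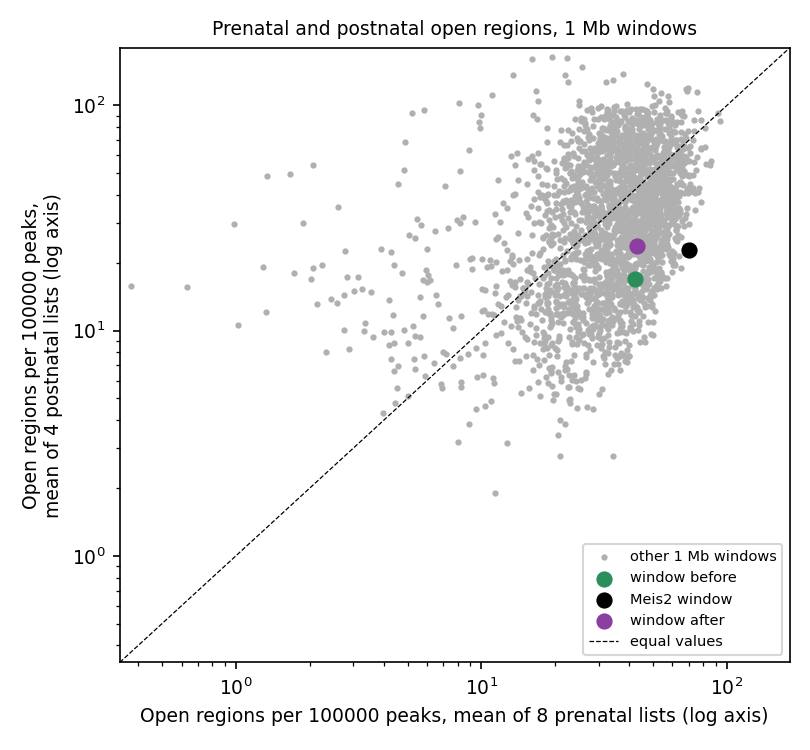
Open regions per 100000 peaks in windows of 1 Mb, as the mean of 8 prenatal lists against the mean of 4 postnatal lists, both on log axes. The Meis2 window (black) lies at 69.9 and 22.9, to the right of both neighbouring windows, and the dashed line marks equal values.

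The windows whose 12 values per 100000 peaks followed those of the Meis2 window most closely lay on chromosome 17 from 63000001 (Pearson r = 0.992) and on chromosome 16 from 63000001 (r = 0.974). The next lay on chromosome 18 from 23000001 (r = 0.972), chromosome 17 from 51000001 (r = 0.970) and chromosome 19 from 14000001 (r = 0.968). Their postnatal to prenatal ratios were 0.301 to 0.472. These are descriptions over 12 lists that share replicates, list lengths and the same split by birth, and 5 windows were picked from 2551.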

How the data were processed

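ATAC-seq peak positions of 12 lists were used, 1 deposited list per sample and none for pooled replicates. The deposited values are the chromosome, start, end and name of each peak, with no score. The build (mm9) and the tools (MACS2 2.1.0, Picard 1.14.0, Bowtie2 and cutadapt) are those of the submitters' processing notes. Settings, read shifting for the transposase and read numbers are not given in the sources used, so the number of peaks was the only stand-in for depth. Whether it stands for depth alike before and after birth was not tested. Starts were converted to 1-based positions. Peaks of all lists were merged into regions over the whole genome, and shares in the window were set beside shares over all regions. Peak length in a region is the summed length of a list's peaks there. Tests were exact permutations over lists. Python 3.11.15, numpy 2.4.6, pandas 2.3.3, scipy 1.17.1, statsmodels 0.14.6 and matplotlib 3.10.9 were used.

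The window, classes and tests were chosen with earlier results of these data known. Up to 8 regions per class, those with the longest median peak in the lists that define the class, could be named. The split of deep-layer-led regions by their E17.5 state, and regions named outside this rule, were chosen after their values were seen. Gene placement and cell type markers had been planned for an mm9 annotation and are not analysed here. Region building was tested on simulated peaks. Same-numbered replicates did not deviate together (correlations of −0.114 to 0.0299 over 233120 regions), so replicate numbers were not taken as pairs. Alternatives were lists cut to equal numbers of their widest peaks, 500 bp windows, 0.5 coverage, merging across 200 bp, scaling to list length, age-overlapping stages, a replicate block and each list left out, with prenatal lists alone, joined postnatal stages and the E17.5 state from a single list added after seeing the data.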

Additional observations from a re-analysis of the deposited data

Results flagged for a closer look

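Deep-layer E18.5 replicate 2 stood apart from the other deep-layer lists in open regions of the window relative to list length, with 89.6 per 100000 peaks against 65.0 to 73.3 in the other 5. The gap was larger than expected of 6 values by Dixon's criterion, which chance meets in about 1 of 20 groups, and 12 groups of values were looked at. The same list had the most open regions (111) and the largest covered length (67045 bp) of the deep-layer lists, which did not meet the criterion.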

How the results depend on the processing

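The deep-layer minus upper-layer difference of 39.2 open regions was 34.3 to 48.9 with each list left out and 22.3 with 0.5 of a region covered, and turned to −3.67 among prenatal lists alone. With the replicate block, which averaged replicate numbers 1 and 2 and so left out P1 replicate 3, it was 33.8. The deep-layer stage difference of −2.5 turned to 9 with lists cut to equal numbers of widest peaks (p = 0.2, exact permutation) and 15.4 per 100000 peaks, and was −22.5 to 18.5 with lists left out (exact permutation p 0.3 to 1). The upper-layer stage difference was −69.5 to −57.5 with lists left out and −37.5 with the widest peaks, and passed the threshold under no setting. Stage labels permuted within replicate numbers gave p = 0.944 for the deep-layer and p = 0.167 for the upper-layer stage difference (exact permutation, replicate block). Few assignments exist within replicate numbers, and the label of P1 replicate 3 could not move. Neither blocked test could therefore reach 0.05, and nothing is read from them.

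The 29 regions with a deep-layer lead numbered 9 with 0.5 coverage, 13 among prenatal lists (there, 4 or more deep-layer lists and neither E17.5 list), and 8 to 37 with lists left out: 12 and 9 without E13.5 replicate 1 or 2, 8 and 9 without E16.5 replicate 1 or 2, and 12 and 8 without E18.5 replicate 1 or 2. An upper-layer lead was found in 1 region with the widest peaks and in 1 with age-overlapping stages (there, a lead of 3 lists), and in 0 with any list left out. With lists left out, regions lost and gained in deep-layer neurons numbered 17 to 37 and 14 to 43, and in upper-layer neurons 62 to 80 and 4 to 17. These counts are given without shares over the genome. Upper-layer losses were 37 with the widest peaks, upper-layer gains 2 with 0.5 coverage, and deep-layer gains 9 with 500 bp windows and 8 with merging across gaps. Few peaks per postnatal list, 26 to 37 in the window, limit what can be said of single regions after birth.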

Other observations

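The region from 115482548 to 115484333 was open in all 6 deep-layer lists with peaks that differed in length by stage: 211 and 212 bp at E13.5, 869 and 630 bp at E16.5, and 1483 and 1328 bp at E18.5. In upper-layer neurons it held a peak of 258 bp in E17.5 replicate 2 and none elsewhere. It was singled out after its values were seen, and no test was made. Its E13.5 lengths lie near 200 bp, the shortest length in any window region. Whole E18.5 lists also had longer median peaks than E13.5 lists. The neighbouring region from 115484796 to 115487041 was open in all prenatal lists and both P5 lists, and in neither P1 list.

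The region open in deep-layer lists alone at the start of the window had a like neighbour outside it: the last region before the window, from 114998017 to 114998629, had peaks in 4 deep-layer lists and none in upper-layer lists. At the other end, the last region in the window, from 115991779 to 115992236, was open in 2 postnatal lists alone, and the first region after it, from 116025988 to 116028116, in all 8 prenatal lists alone.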
